A study of Homo sapiens with 6 samples.

Results

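The genes described here are 5 matrix metalloproteinase genes (MMP1, MMP2, MMP3, MMP10 and MMP14), the genes of 3 tissue inhibitors of metalloproteinases (TIMP1, TIMP2 and TIMP3) and WTAPP1, a transcribed pseudogene that is neither and whose row lies over MMP1 and MMP3 on the other strand. They were picked by name with their response to the drug already known, so the difference between the groups chose them and is given for them as a description, without a test. They are 9 of the 38637 genes in the deposited table. Of these 9, 7 passed the filter on low values, and MMP2 and TIMP3 did not.

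Transcripts were measured by sequencing in OVCAR8, a human line of ovarian cancer cells labelled wild type in every sample, after 72 h in DMSO, the solvent used as control, or in 2 nM pladienolide B. Pladienolide B is a macrolide that binds the SF3b complex of the spliceosome and inhibits pre-mRNA splicing. There were 3 samples in each group, all of poly(A)-selected RNA from this 1 cell line. The labels do not say whether the samples came from separate cultures, so p-values measure only the spread between these samples. The libraries held 22621338 to 26130882 reads on genes. The correlation of log2 values between samples of a group was 0.992 to 0.994, and by this measure no library stood apart. All 8 epithelial and ovarian carcinoma markers looked up, among them PAX8 and KRT8, had at least 10 reads in every sample. WT1, with 14 to 32 reads, MUC16, with 11 to 24, and CDH1, with 23 to 40, were low. Of the 8 leukocyte markers looked up, 2 had at least 10 reads in every sample, CD68 with 1155 to 1508 and ITGAM with 11 to 34. PTPRC, another leukocyte marker, had 0 to 2 reads.

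Matrix metalloproteinases (MMPs) are zinc-dependent endopeptidases that are made as inactive precursors and cleave collagens, proteoglycans and other proteins outside the cell. Collagenases such as MMP1 cut fibrillar collagen, stromelysins cut proteoglycans and activate other precursors, gelatinases cut denatured and basement membrane collagen, and membrane-type enzymes act at the cell surface. TIMPs bind the active site and block it, and TIMP2 together with MMP14 also forms the surface complex that activates the MMP2 precursor. Several MMP genes lie side by side on chromosome 11, and tumor cells that express them can remodel the matrix around them.

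Values are given as adjusted reads, the deposited signal scaled to a common library size, or as reads where a gene had few. In OVCAR8 cells the collagenase MMP1 was by far the most abundant of the 9 transcripts per kilobase of exon, and it was higher in pladienolide B. MMP3, WTAPP1 and TIMP2 were also higher, MMP14 and TIMP1 differed by less than 10%, MMP10 overlapped between the groups, and MMP2 and TIMP3 were close to undetected. Over all 16178 genes tested, 47.6% were past an adjusted p of 0.05 (limma), 22.4% higher and 25.2% lower in pladienolide B, and the groups did not overlap for 55.3%. No count of calls is set against these shares for the 9 genes, since this contrast chose them. MMP3 and WTAPP1 also passed the filter only through pladienolide B, where they were high, and WTAPP1 had 9.08 adjusted reads in DMSO sample 2.

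**Figure D1:**
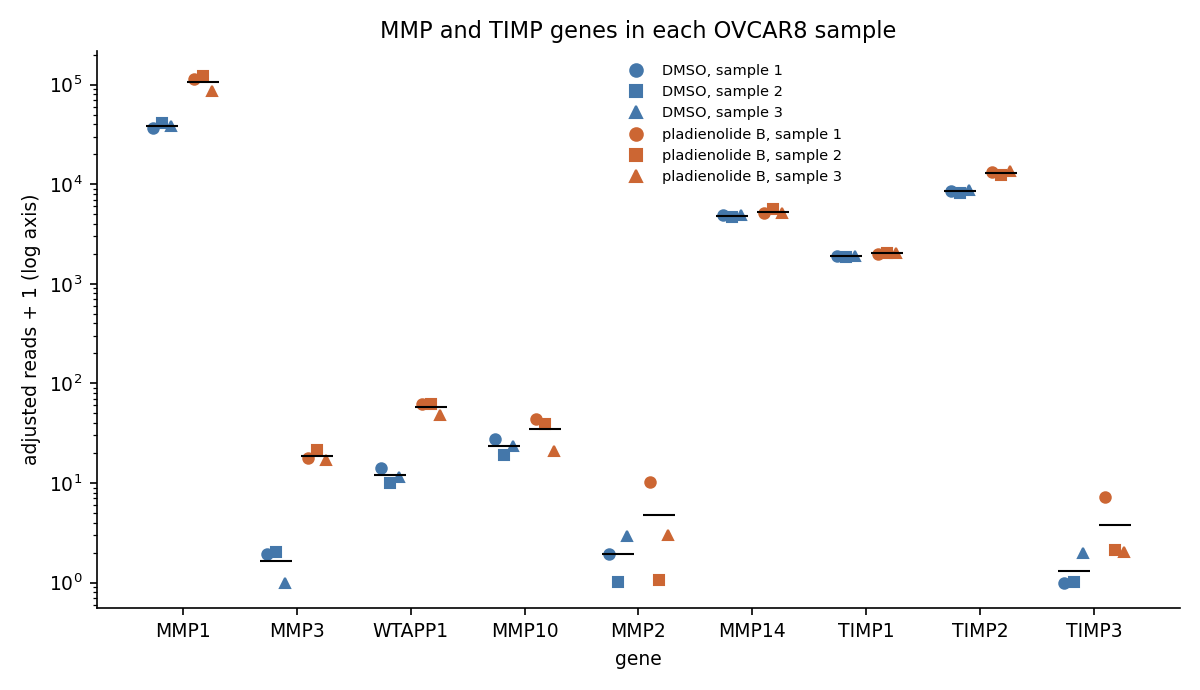
Adjusted reads plus 1 on a log axis for the 9 genes in each of the 6 samples, with DMSO in blue, pladienolide B in orange and a black line at the arithmetic mean of each group. MMP1, MMP3, WTAPP1 and TIMP2 sit higher in all 3 pladienolide B samples than in any DMSO sample, and for MMP2 and TIMP3 only pladienolide B sample 1 stands clear of the rest.

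MMP1, the interstitial collagenase (GRCh38, chr11:102789919-102798160, minus strand), had 36784, 41512 and 38242 adjusted reads in the DMSO samples. In the pladienolide B samples it had 113314, 122081 and 87396 adjusted reads. The groups were far apart, and the lowest of the pladienolide B samples still lay above the highest DMSO sample. The means were 38846 ± 2421 in DMSO and 107597 ± 18035 in pladienolide B (SD, n = 3 each), a 2.77-fold difference. On the scale of log2(adjusted reads + 1) the difference was 1.46 with a standard error of 0.09 and a 95% interval of 1.28 to 1.64. Leaving out each library in turn gave 1.36 to 1.60.

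This transcript took a measurable share of the whole library. MMP1 held 0.150%, 0.165% and 0.155% of all reads on genes in DMSO and 0.466%, 0.506% and 0.363% in pladienolide B. Ordered by reads, it was the gene of rank 40, 34 and 35 in the DMSO samples and of rank 3, 3 and 6 in the pladienolide B samples. Its depth therefore leaves little counting error, and the spread between samples sets its precision.

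The 3 genes whose profile over the 6 samples was closest to that of MMP1, by Euclidean distance between centred log2 values, were TMCC3 (distance 0.206), LINC02009 (0.294) and MAP2K3 (0.300). TMCC3 had 76.2, 89.7 and 68.8 adjusted reads in DMSO and 233.2, 235.5 and 177.4 in pladienolide B. MAP2K3, which encodes a kinase that activates p38, had 774, 911 and 737 adjusted reads in DMSO and 2262, 2208 and 2046 in pladienolide B. With 3 samples in each group, such likeness rests mostly on the size of the difference between the groups.

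MMP3, stromelysin 1 (chr11:102835801-102843609, minus strand), had 1, 1 and 0 reads in the DMSO samples and 16, 19 and 16 reads in the pladienolide B samples. The gene was at the limit of detection in DMSO and low but steady in pladienolide B, and the groups did not overlap. Pooled over each group, the depth-scaled ratio of 51 to 2 reads was 27.4, with a 95% interval from the counts alone of 7.21 to 232.5. The intervals on such ratios cover counting error only, since reads without molecular identifiers are not independent molecules. The difference on the log2(adjusted reads + 1) scale was 3.56 with a standard error of 0.57, and with a pseudocount of 0.1 in place of 1 it was 5.18.

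WTAPP1 (chr11:102783676-102836766, plus strand) is a pseudogene related to WTAP, a subunit of the RNA methyltransferase complex. It had 14, 9 and 11 reads in DMSO and 59, 58 and 47 reads in pladienolide B. The pladienolide B samples were all well above the DMSO samples. The means were 10.9 ± 2.13 and 56.8 ± 8.36 adjusted reads (SD, n = 3 each), a 5.21-fold difference, and the difference on the log2 scale was 2.28 with a standard error of 0.28. Its parent WTAP had 2127 ± 50.6 adjusted reads in DMSO and 2165 ± 8.41 in pladienolide B, and did not pass the test (log2 difference 0.03, limma adjusted p = 0.672).

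The WTAPP1 row covers the whole 8242 bp of the MMP1 row and 966 bp of the MMP3 row on the opposite strand. Within exons the overlap was smaller. Of the 2642 exonic bases of WTAPP1 in the annotation, 223 (8.44%) lie under MMP1 exons and 32 (1.21%) under an exon of a MMP3 transcript that is not the canonical one. None lie under MMP10 exons. The sources used here do not say whether reads were counted by strand, and without strand the reads of WTAPP1 and of these antisense partners cannot be told apart where their exons overlap. The WTAPP1 row spans the introns of MMP1 as well. Without strand, a read from an MMP1 intron that falls on a WTAPP1 exon would count for WTAPP1. The part of such reads in the WTAPP1 values was not tested.

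The reads of WTAPP1 and MMP3 were also set against those of MMP1, which overlaps WTAPP1 but not MMP3. For every 10000 reads on MMP1, WTAPP1 had 3.58, 2.19 and 2.72 reads in DMSO and 5.43, 5.07 and 5.39 in pladienolide B. On the same scale MMP3 had 0.256, 0.243 and 0 reads in DMSO and 1.47, 1.66 and 1.84 in pladienolide B. Both were higher relative to MMP1 in every pladienolide B sample than in any DMSO sample. In DMSO these proportions rest on 9 to 14 reads a sample for WTAPP1 and 0 to 1 for MMP3, so their counting error is large.

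MMP10, stromelysin 2 (chr11:102770502-102780628, minus strand), had 28, 18 and 24 reads in DMSO and 41, 36 and 20 reads in pladienolide B. The groups overlapped, because pladienolide B sample 3 lay within the DMSO range. The log2 difference was 0.51 with a standard error of 0.31 and a 95% interval of -0.14 to 1.16. Leaving out each library in turn gave 0.31 (without pladienolide B sample 1) to 0.84 (without pladienolide B sample 3). Without pladienolide B sample 2 it was 0.39, so its size depends on which libraries are kept. Pladienolide B sample 3 was also the lowest of its group for MMP1 and WTAPP1.

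For every 10000 reads on MMP1, MMP10 had 7.17, 4.37 and 5.93 reads in DMSO and 3.77, 3.15 and 2.29 in pladienolide B, so relative to MMP1 it was lower in all 3 pladienolide B samples. MMP3 and MMP10 are close relatives. Of the 1773 stretches of 50 bases in the MMP3 transcript, 59 also occur in that of MMP10, and this was the only such pair on the same strand among the 78 pairs of the 13 transcripts compared. Reads falling there cannot be assigned to either gene with certainty, which adds uncertainty to the low MMP3 values.

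Promoter sequence was at hand for 4 of the 9 genes (MMP10, MMP14, TIMP1 and TIMP3). The 250 bases before the start were searched for the AP-1 motif TGANTCA and the ETS motif AGGAAG on both strands. The TATA box letters TATAAA were searched on the forward strand anywhere in these bases, and each motif was searched on its own. AP-1 and ETS factors are the textbook regulators of MMP promoters. MMP10 carried an AP-1 motif 67 to 61 bases and a TATA box 31 to 26 bases before its start. MMP7, the matrilysin gene of the same cluster, had the same pair at nearly the same places, 67 to 61 and 30 to 25 bases before its start, and ETS motifs farther up, at 169 to 164 and 145 to 140 bases. MMP20, in the same cluster, also held an AP-1 motif and the letters TATAAA, at 112 to 106 and 72 to 67 bases. MMP8 held TATAAA alone, at 110 to 105 bases, and MMP27 held none of the motifs. In MMP20 and MMP8 these letters lie farther up than in MMP10 and MMP7 and are a match of letters only. TIMP1 had an ETS motif 87 to 82 bases before its start, and MMP14 and TIMP3 had none of these letters in the window. The start meant here is that of the RefSeq promoter. For TIMP1 it lies downstream of the first base of the row given below, chrX:47582408, so the last printed bases fall within that row. For MMP8 and MMP27 this start also lies inside the row. Of 35116 promoters in RefSeq on GRCh38.p14, 6.57% held the AP-1 motif, 28.7% the ETS motif and 6.8% the letters TATAAA. The last 120 bases before the start are shown 5′ to 3′ for MMP10 (chr11:102780629-102780748, minus strand), MMP7 (chr11:102530748-102530867, minus strand), TIMP1 (chrX:47582316-47582435, plus strand) and MMP14 (chr14:22836465-22836584, plus strand), to set beside each other the 2 cluster promoters alike in these motifs and those of 2 members outside the cluster, with the matched motifs in capitals:
MMP10: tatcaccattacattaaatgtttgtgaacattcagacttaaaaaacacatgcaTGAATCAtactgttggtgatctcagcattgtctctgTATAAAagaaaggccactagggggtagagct
MMP7: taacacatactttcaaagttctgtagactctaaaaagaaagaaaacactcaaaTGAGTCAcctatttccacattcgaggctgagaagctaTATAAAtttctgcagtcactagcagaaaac
TIMP1: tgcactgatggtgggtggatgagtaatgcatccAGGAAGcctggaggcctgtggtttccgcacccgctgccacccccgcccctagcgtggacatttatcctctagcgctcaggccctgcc
MMP14: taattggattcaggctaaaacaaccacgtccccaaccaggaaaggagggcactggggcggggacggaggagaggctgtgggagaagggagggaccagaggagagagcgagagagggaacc

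MMP7 itself had 4, 4 and 5 reads in DMSO and 7, 11 and 12 reads in pladienolide B, too few to pass the filter. The MMP7 groups did not overlap, while those of MMP10 did. MMP20, MMP8 and MMP27 had 0 to 1 reads in each sample.

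MMP14, the membrane-type enzyme MT1-MMP (chr14:22836585-22847758, plus strand), had 4878, 4739 and 4914 adjusted reads in DMSO and 5093, 5590 and 5147 in pladienolide B. There was no overlap between groups, but the gap between them was smaller than the range within the pladienolide B group. The log2 difference was 0.12 with a standard error of 0.04 and a 95% interval of 0.03 to 0.22. Without pladienolide B sample 2 the difference was 0.08.

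MMP2, gelatinase A (chr16:55478830-55506691, plus strand), had 1, 0 and 2 reads in DMSO and 9, 0 and 2 reads in pladienolide B. Its transcript was close to undetected in 5 of the 6 samples. The pooled ratio of 11 to 3 reads was 3.94, with a 95% counting interval of 1.04 to 22.0. Without pladienolide B sample 1 the ratio was 1.07, with an interval of 0.0896 to 9.36, so a difference was not detectable at this depth in the other samples.

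TIMP1 (chrX:47582408-47586789, plus strand), a secreted inhibitor of most soluble MMPs, had 1921, 1866 and 1901 adjusted reads in DMSO and 1974, 2060 and 2021 in pladienolide B. The samples of each group lay close together and the groups did not overlap. The log2 difference was 0.09 with a standard error of 0.05 and a 95% interval of -0.01 to 0.19. TIMP1 lies wholly within SYN1, a synapsin gene on the other strand, and shares no exonic bases with it. SYN1 was higher in pladienolide B and passed the test, with 44.2 ± 8.06 adjusted reads in DMSO and 84.6 ± 15.1 in pladienolide B (log2 difference 0.92, limma adjusted p = 0.00125).

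TIMP2 (chr17:78852977-78925387, minus strand), which both inhibits MMPs and takes part in activating the MMP2 precursor, had 8589, 8209 and 8660 adjusted reads in DMSO. It had 13345, 12317 and 13633 adjusted reads in pladienolide B. The groups were well separated relative to their spread. The means were 8486 ± 242 and 13099 ± 692 (SD, n = 3 each), a 1.54-fold difference, and the log2 difference was 0.63 with a standard error of 0.04. CEP295NL, a gene of the same strand within TIMP2, had 0 to 5 reads in every sample.

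TIMP3 (chr22:32801705-32863041, plus strand), the inhibitor that binds to the extracellular matrix, had 0, 0 and 1 reads in DMSO and 6, 1 and 1 reads in pladienolide B. It was close to undetected in every sample but pladienolide B sample 1. The pooled ratio of 8 to 1 reads was 8.60, with a 95% counting interval of 1.15 to 382, and without pladienolide B sample 1 it was 3.22, with an interval of 0.168 to 190. Its host SYN3 on the other strand had 9, 5 and 3 reads in DMSO and 2, 6 and 4 in pladienolide B, with no shared exonic bases.

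MMP2 and TIMP3 were both highest in pladienolide B sample 1, and so were COL1A2 and COL3A1, 2 of the 8 genes in a fixed list of fibroblast markers, which were singled out after their values were seen. COL1A2 had 23, 17 and 27 reads in DMSO and 79, 21 and 22 reads in pladienolide B. COL3A1 had 1, 2 and 3 reads in DMSO and 14, 2 and 4 reads in pladienolide B. Without that library the pooled ratios were 1.03 for COL1A2, with a counting interval of 0.687 to 1.54, and 1.61 for COL3A1, with an interval of 0.430 to 6.02.

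Of the 3 genes whose profile was closest to that of TIMP3, COL1A2 had a distance of 0.936, NDST1-AS1 of 0.796 and RIMBP3B of 0.963. All 3 were highest in pladienolide B sample 1, and with so few reads this likeness is largely that 1 library. Of the 8 fibroblast markers in the fixed list, 4 had at least 10 reads in every sample. The summed level of the 8 was 6985 to 7161 adjusted reads in DMSO and 5926 to 6588 in pladienolide B, most of it COL1A1. COL1A1, also a fibrillar collagen gene, was lowest in pladienolide B sample 1, with 5602 adjusted reads against 5782 and 6318 in the other pladienolide B samples and 6659 to 6902 in DMSO. LUM, THY1 and PDGFRA also had their lowest value of the pladienolide B group in that sample, and PDGFRB its highest, at 193.8 against 180.6 and 192.4. DCN, which fibroblasts express strongly, had 0 reads in all DMSO samples and 2, 0 and 1 in pladienolide B. The part of other cells in the MMP2 and TIMP3 reads was not tested, and in bulk RNA a change in the number of cells that carry a transcript and a change in its amount per cell cannot be told apart.

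**Figure D2:**
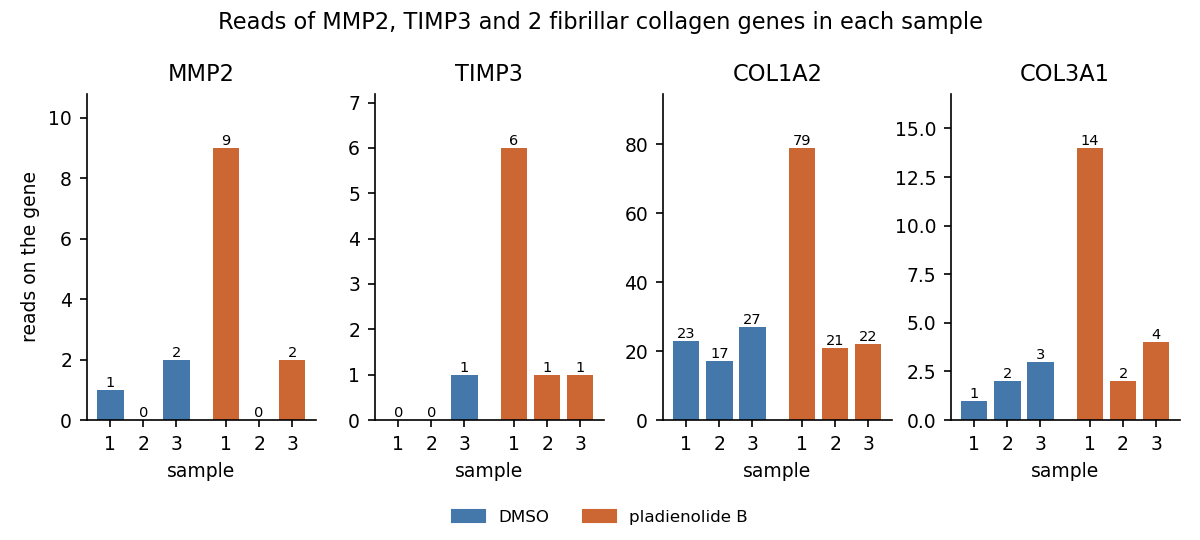
Reads on MMP2, TIMP3, COL1A2 and COL3A1 in each of the 6 samples, each bar being 1 sample with its number of reads above it, DMSO in blue and pladienolide B in orange. In all 4 genes pladienolide B sample 1 is the highest bar, with 9, 6, 79 and 14 reads.

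Per kilobase of exon, which allows levels of different genes to be compared, the 9 genes lay far apart in DMSO. MMP1 led with 19709 adjusted reads per kb, followed by TIMP1 with 2465, TIMP2 with 2324 and MMP14 with 1309. Far below came MMP10 with 12.8, WTAPP1 with 4.13, MMP3 with 0.357, MMP2 with 0.270 and TIMP3 with 0.0695. TIMP1 and TIMP2 were close but their ranges over the DMSO samples, 2426 to 2498 and 2248 to 2371, did not overlap. The order of these 2 depends on the exon length used, which these ranges do not cover. TIMP1 was divided by the 769 bases of its canonical transcript, while all its exons cover 1446 bases. The ranges of MMP3, MMP2 and TIMP3, each resting on 0 to 2 reads a sample, overlapped with each other.

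In pladienolide B the order of the level per kb was MMP1 with 54590, TIMP2 with 3587, TIMP1 with 2625, MMP14 with 1426, WTAPP1 with 21.5, MMP10 with 19.1, MMP3 with 9.68, MMP2 with 1.07 and TIMP3 with 0.602. TIMP2 lay above TIMP1, with ranges of 3373 to 3733 and 2567 to 2679. The ranges of WTAPP1 and MMP10 overlapped, 17.8 to 23.4 and 11.4 to 24.2, so these neighbors did not differ beyond their spread. MMP2 and TIMP3 overlapped as well.

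Proportions between enzymes and inhibitors followed from these levels and are given for each sample as a description. The summed level per kb of the 5 MMP genes was 4.12, 4.78 and 4.28 times that of the 3 TIMP genes in DMSO and 9.47, 10.5 and 7.19 times in pladienolide B. MMP1 alone made up 93.3% to 94.2% of the MMP sum in DMSO and 96.9% to 97.6% in pladienolide B, so this ratio is almost entirely a ratio of MMP1 to the inhibitors. How large the ratio is depends on the exon lengths used. MMP1 was divided by the 1971 bases of its canonical transcript, while all its exons cover 2738 bases. All levels here are of transcripts, and neither the proteins nor their activity were measured.

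The ratio of TIMP2 to TIMP1 per kb was 0.942, 0.927 and 0.959 in DMSO and 1.42, 1.26 and 1.42 in pladienolide B. The size of this ratio depends on the exon lengths used, which scale it alike in every sample. The ratio of MMP14 to TIMP2, the partners on the cell surface, was 0.560, 0.570 and 0.560 in DMSO and 0.377, 0.448 and 0.373 in pladienolide B. For all 3 ratios the groups were apart in every sample, with the ratio of MMP14 to TIMP2 being the one that was lower in pladienolide B.

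**Figure D3:**
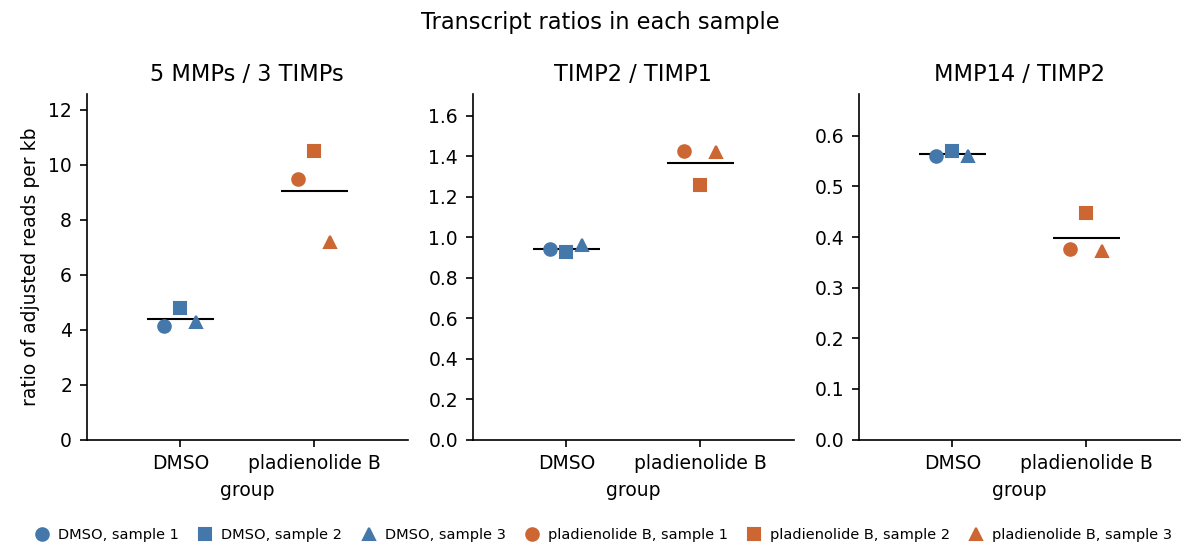
Ratios of adjusted reads per kb in each sample for the summed 5 MMP genes over the 3 TIMP genes, TIMP2 over TIMP1 and MMP14 over TIMP2, with a black line at the mean of each group. The first 2 ratios are higher in all 3 pladienolide B samples, and MMP14 over TIMP2 lies at 0.560 to 0.570 in DMSO and lower, at 0.373 to 0.448, in pladienolide B.

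The family members that had not been picked are what the choice left over, so their values are not independent of it. Of the 19 other MMP and TIMP genes in the fixed list, 12 passed the filter, 5 of them were higher in pladienolide B, 1 was lower and 6 did not pass the test, so that 50% were called against the 47.6% of all genes tested. Their median log2 difference was 0.16, against -0.004 over all genes. This share was near the background and is no result about the family as a whole. MMP12, 1 of the 5 higher genes, passed the filter only through the pladienolide B samples.

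Among the membrane-type enzymes, MMP17 rose from 139.6 ± 9.96 to 263.5 ± 29.4 adjusted reads (SD, n = 3 each, log2 difference 0.91, limma adjusted p = 7.06e-06) and MMP15 from 957 ± 61.8 to 1271 ± 19.2 (0.41, adjusted p = 2.13e-05). MMP24 also passed the test (0.26, adjusted p = 0.0265), but not without DMSO sample 1, pladienolide B sample 1 or pladienolide B sample 3 (adjusted p 0.0665, 0.0999 and 0.117). MMP16 and MMP25 had log2 differences of 0.02 and -0.14 and did not pass.

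Among the other classes, MMP12, the macrophage elastase gene, rose from 6, 11 and 22 reads in DMSO to 45, 50 and 36 in pladienolide B (log2 difference 1.93 with a standard error of 0.38, limma adjusted p = 0.00045). MMP12 passed the filter on low values only through pladienolide B, where it was high, since DMSO sample 1 had 5.47 adjusted reads. Its difference and p-value are therefore a description. MMP19 rose with a log2 difference of 0.41 (adjusted p = 5.03e-05), and MMP23B fell by 0.44 on the log2 scale (adjusted p = 0.00686). The gelatinase gene MMP9 had 82, 50 and 108 reads in DMSO and 42, 63 and 64 in pladienolide B and did not pass the test (log2 difference -0.36, limma adjusted p = 0.239). Leaving out each sample in turn gave log2 differences from -0.62 without DMSO sample 2 (adjusted p = 0.0256) to -0.12 without DMSO sample 3 (adjusted p = 0.735). MMP11, a stromelysin by name, had a log2 difference of 0.46 (adjusted p = 0.0577), which ranged from 0.23 without DMSO sample 1 (adjusted p = 0.306) to 0.64 without DMSO sample 2 (adjusted p = 0.00899). MMP28 (-0.20) and TIMP4 (0.06) did not pass. The other collagenase genes were hardly detected, with 0 to 9 reads a sample for MMP13 and 0 to 1 for MMP8.

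Macrophages are the usual source of MMP12, so leukocyte markers are given beside it. Of the 8 in the fixed list, 2 had at least 10 reads in every sample, and the summed level was 1131 to 1298 adjusted reads in DMSO and 1522 to 1628 in pladienolide B, most of it CD68. The 8 markers did not move together. CD68 rose (log2 difference 0.41, limma adjusted p = 2.35e-05), ITGAM fell by 0.99 on the log2 scale (adjusted p = 0.021), and the other 6 did not pass the filter. CD14 had 5, 10 and 8 reads in DMSO and 19, 13 and 9 in pladienolide B, CSF1R had 7 to 17 reads a sample, and PTPRC, CD163, AIF1 and LYZ had 0 to 2. OVCAR8 is a cell line in culture, and the part of leukocytes in the MMP12 value was not tested.

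**Figure D4:**
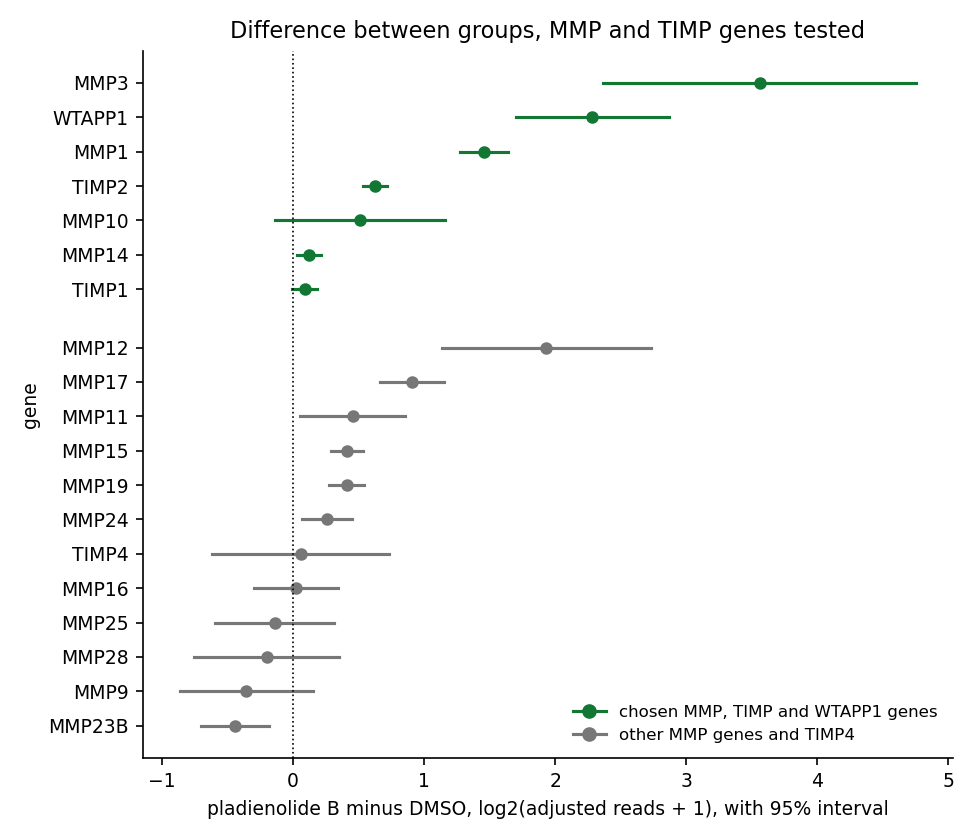
Difference between pladienolide B and DMSO on the log2(adjusted reads + 1) scale with its 95% interval for the 7 chosen genes that passed the filter (green) and the 12 other family genes that did (gray). MMP3, WTAPP1 and MMP1 lie farthest right among the chosen genes at 3.56, 2.28 and 1.46, and MMP12 among the others at 1.93.

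MMP1, MMP3, MMP10 and WTAPP1 lie within 73.1 kb of chromosome 11. Within 1 Mb on either side the table has 21 other rows, of which 10 passed the filter. Of these, 2 were higher (MMP12 and YAP1), 4 lower (CEP126, CFAP300, TMEM123 and DYNC2H1) and 4 did not pass, with a median log2 difference of -0.02. The number higher was 1 without DMSO sample 3, pladienolide B sample 1 or pladienolide B sample 2. MMP12 was the only one of the 10 that was called and differed at least 2-fold, as 1.95% of all genes tested did upward and 1.98% downward. MMP12 passed the filter only through the pladienolide B samples, where it was high. It was named by a rule, and the other 5 called genes after their values were seen.

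MMP12 is also the nearest tested gene on the far side of MMP3, with its center 70.7 kb from the MMP1 start. On the other side the nearest tested gene was TMEM123-DT, with its center 340.7 kb away and a log2 difference of 0.23 that did not pass the test (limma adjusted p = 0.561).

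**Figure D5:**
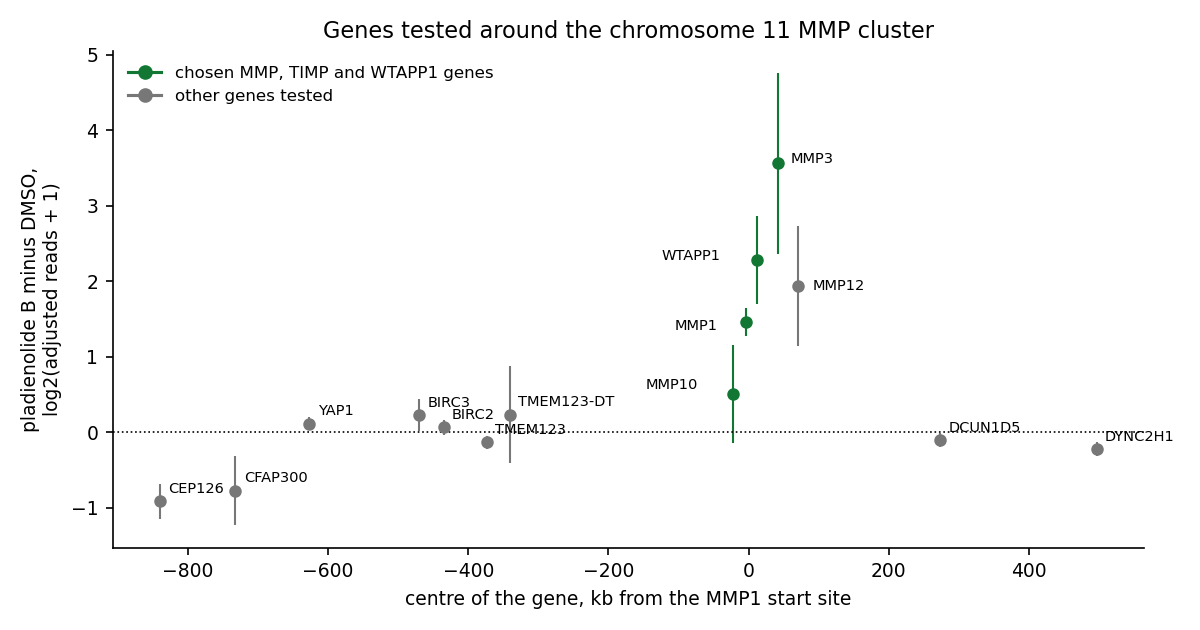
Log2 difference between pladienolide B and DMSO with its 95% interval for each tested gene around the chromosome 11 MMP cluster, against the distance of the gene's center from the MMP1 start site in kb. MMP1, WTAPP1, MMP3 and MMP12 lie between 1.46 and 3.56, MMP10 at 0.51, and the other tested genes near or below 0.

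Groups of genes that act with MMPs or resemble them were described from fixed lists. These lists were chosen with earlier results of these data known. Their shares of called genes are therefore a description and no result about a list as a whole. The ADAM and ADAMTS proteinases, relatives that shed surface proteins and cut proteoglycans, had 21 of 28 genes tested, of which 0 rose, 7 fell and 14 did not pass by limma, so that 33.3% were called against 47.6% of all genes tested (22.4% higher and 25.2% lower), with a median log2 difference of -0.10 against -0.004 over all genes. At an unadjusted p of 0.05 1 was higher, and edgeR and DESeq2 on the recovered reads called 0 higher as well. Without pladienolide B sample 2 only 4 fell, and without DMSO sample 2 or pladienolide B sample 1 there was 1 that rose. ADAMTS6 fell by 1.14 on the log2 scale (adjusted p = 2.98e-08), ADAMTS1 by 0.52 (adjusted p = 1.23e-06) and ADAMTS5 by 0.51 (adjusted p = 0.000519).

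Of the activators, inhibitors and binding partners of MMPs, 21 of 24 were tested, 7 rose, 9 fell and 5 did not pass, so that 76.2% were called against 47.6% of all genes tested, with a median log2 difference of -0.07. This share is likewise a description, since earlier results were known when the list was chosen. The genes that rose most were those of the plasminogen activator system, which generates the plasmin that activates MMP precursors. PLAU, the urokinase gene, rose from 747 ± 13.6 to 1280 ± 48.0 adjusted reads (log2 difference 0.78, limma adjusted p = 1.01e-08), its receptor gene PLAUR by a log2 difference of 0.66 (adjusted p = 3.84e-09) and PLAT by 0.59 (adjusted p = 6.63e-08). CTSK, a collagen-degrading cathepsin gene, fell by 0.98 on the log2 scale (adjusted p = 0.00903), the integrin gene ITGAV by 0.82 (adjusted p = 3.46e-09), and LRP1, a receptor that clears MMPs and their complexes, by 0.67 (adjusted p = 3.15e-07).

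Of the AP-1 and ETS factor genes, 12 of 13 were tested, 4 rose, 5 fell and 3 did not pass, so that 75% were called against 47.6% of all genes tested, with a median log2 difference of -0.06. This list too was chosen with earlier results known, and its share is a description. FOSL1 rose from 5443 ± 402 to 11208 ± 311 adjusted reads (log2 difference 1.04, limma adjusted p = 6.14e-11), and ETV5 (0.44, adjusted p = 1.96e-06), ETS2 (0.36, adjusted p = 0.00123) and ELK1 rose as well. FOS fell by 2.36 on the log2 scale (adjusted p = 7.06e-09), FOSL2 by 0.58 (adjusted p = 1.02e-07) and FOSB by 0.75 (adjusted p = 0.00936), the last not without DMSO sample 3 or pladienolide B sample 3 (adjusted p 0.0571 and 0.0561). Without either of these libraries 3 genes of this list fell. JUN and JUNB fell too, and these and ELK1 were named after their values were seen. The subunits of AP-1 thus moved in both directions beside the MMP genes, and no binding of these factors was measured.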

How the data were processed

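Poly(A) RNA of 6 OVCAR8 samples, 3 in DMSO and 3 in pladienolide B, was analyzed from 1 table of the whole series. The methods give trimming and alignment to hg38 with hisat2, and the submitters' processing notes list HISAT2, HTSeq 0.12.4, DESeq2 and the build hg19. Positions in the table overlapped those of GRCh38.p14 for 99.85% of 35926 shared symbols, and 8 of the 9 genes had the same start and end. The strand setting of the counting is not given in the sources used here. The authors deposited 1 adjusted signal per gene and sample, found to be the quantile-adjusted counts of edgeR, and whole reads were recovered from it for 100% of values of 10 or more, within 0.02. The deposited log2 fold change, p-value and q-value columns hold the authors' own comparison and were not used.

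The main test was limma 3.58.1 in R 4.3.3 on log2(adjusted reads + 1), two-sided with Benjamini-Hochberg adjustment over 16178 genes kept by filterByExpr (a minimum of 10 reads scaled to the library size in 3 samples and 15 in total). The planned test for raw counts was not the main one because the deposited signal is not whole. On the recovered reads, edgeR 4.0.16 called 7738 genes and DESeq2 1.42.0 called 6985, against 7695 by limma. The other alternatives were no filter, a pseudocount of 0.1, upper-quartile factors, the replicate number as a block and each sample left out. The script was tested on simulated data. Library totals were 22621338 to 26130882 reads.

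The 9 genes and all lists were chosen with earlier results of these data known. The genes named are the 9, every other MMP or TIMP gene that passed the filter, the 3 largest differences called in each direction of the other lists, called genes of at least 2-fold and the nearest tested gene on each side of the chromosome 11 cluster, rows overlapping a member, and the 3 profiles nearest to MMP1 and to TIMP3. Other genes were named after their values were seen. Exon lengths came from the canonical transcripts of GENCODE, and for WTAPP1 from all exons within its row. Promoters came from RefSeq. Ratios of few reads have exact binomial intervals.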

Additional observations from a re-analysis of the deposited data

How the results depend on the processing

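Under the 12 alternatives the log2 difference ranged from 1.36 to 1.60 for MMP1, from 0.31 to 0.84 for MMP10 and from 0.08 to 0.15 for MMP14, given as a description. Genes called over the whole table ranged from 6568 to 7836. With the replicate number as a block 7349 genes were called, and same-numbered samples did not deviate together (correlations of -0.0183, -0.0175 and 0.00261), so the numbers give no pairing. The block left 1 gene higher around the chromosome 11 cluster in place of 2 and brought MMP11 past the threshold (adjusted p = 0.0408), as did edgeR with upper-quartile factors (adjusted p = 0.0495). Leaving out each sample in turn gave 1 to 2 other MMP genes lower, 4 to 8 ADAM and ADAMTS genes called with 4 to 7 lower and 0 to 1 higher, 3 to 6 AP-1 and ETS genes lower, and 1 to 3 genes higher around the cluster. Genes that did not pass the test changed sign as samples were left out, MMP25 ranging from -0.32 to 0.10 (positive without pladienolide B sample 3), TIMP4 from -0.14 to 0.31 (negative without DMSO sample 3 at -0.08 or pladienolide B sample 1), MMP16 from -0.052 to 0.16 (negative without DMSO sample 2 or pladienolide B sample 1, both -0.04, or pladienolide B sample 2) and TMEM123-DT from -0.023 to 0.46 (negative without pladienolide B sample 2). The cause of these shifts was not tested. Depth limits MMP2, MMP3 and TIMP3, with 0 to 2 reads in each DMSO sample.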
